A study of Nematostella vectensis with 123 samples.

Results

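The oldest and the youngest embryos of one run of numbered samples of the starlet sea anemone, Nematostella vectensis, were compared. The later group held 18 single embryos with label times from 36 to 47.3 h (embryos 56 to 73). The earlier group held 10 single embryos with label times below 6 h, which ran from -20 min to 4.67 h (embryos 50 and 1 to 9). These 28 of 123 embryos were chosen by label time, embryo number and depth. Embryo 10 also has a label time below 6 h, and it was left out for its low depth. The labels give no strain, genotype or treatment beyond removal of the egg jelly with cysteine and growth at 20 °C. Single embryos were picked at the 4-cell stage, kept in drops of diluted sea water and frozen singly, and the RNA was read by CEL-Seq, which counts the 3′ ends of polyadenylated RNA. The labels give a time and no stage for each embryo, so the earlier group is called here by its hours. Embryos of equal age were not sampled more than once within this run, and nothing in the labels says that they came from separate clutches.

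As background, an animal egg is loaded with RNA by the mother, and early cleavage divisions run largely on this store. Later the embryo reads its own genome and clears much of the maternal store, a handover called the maternal-to-zygotic transition. In this anemone a hollow blastula then forms, gastrulates and becomes a ciliated, swimming planula larva with an outer ectoderm and an inner layer. By label time the comparison sets the start of the same run against its end; the labels' protocol places the late planula at 48 h, and the stage of the single embryos was not checked here. In whole embryos, fewer cells of a type and less RNA per cell cannot be told apart.

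Both groups lie in embryos 1 to 73, whose numbers rise with label time except for embryo 50. Any difference from embryos 74 to 123 therefore does not enter. The word run means here a series of embryo numbers only. Anything else that changed with embryo number cannot be told apart from age. Counts assigned to transcript models, called gene counts, numbered 229707 to 1970889 per embryo at 36-48 h (median 856972) and 503712 to 1630063 below 6 h (median 892389). A model at 0 in an embryo could therefore have been present at up to 1.52 to 13.1 counts per 1000000 gene counts (CPM) at 36-48 h and up to 1.84 to 5.96 CPM below 6 h, taking 3 counts as the limit. Embryos 56 and 1 stood apart in composition. In embryo 56, the youngest of the later group, the 3153 models that share the identifier stem Nv.T1.63571 held 44.1% of gene counts, and in embryo 1 they held 32.7%. The scaling factors of these embryos were the lowest of their groups, 0.728 in embryo 56 and 0.829 in embryo 1, and the other 26 lay between 0.885 and 1.21. Counts outside any feature made up 32.1% of all counts in embryo 58 and 43.1% in embryo 7, and unaligned counts made up 71.0% in embryo 3. No pair of embryos within a group agreed within sampling noise (smallest chi-square per degree of freedom 4.32 over 153 pairs at 36-48 h and 5.67 over 45 pairs below 6 h).

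Later embryos held more polyadenylated RNA relative to the added spike-ins, which are synthetic RNAs. The ratio of gene counts to spike-in counts was between 1.70 and 17.5 at 36-48 h (median 5.25) and between 1.65 and 3.59 below 6 h (median 2.47). Of the 18 later embryos, 15 lay above the highest embryo of the earlier group. The geometric means were 5.48 at 36-48 h and 2.40 below 6 h, a 2.28-fold difference (1.19 ± 0.22 on the log2 scale, SE; two-sided permutation test, p = 0.00012, adjusted p = 0.00024 over 4 measures). The highest ratio, 17.5 in embryo 68, came with 13123 spike-in counts, the fewest of the 28 embryos. The amount of spike-in added per embryo was not given in the sources used here.

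More transcript models were detected in the later embryos at equal depth. Equal depth equalizes counts and not captured molecules, and the earlier embryos had the lower ratio of gene to spike-in counts. Whether this affected the models detected was not tested. At an equal depth of 200000 gene counts, 15683 to 18211 models were detected per embryo at 36-48 h (mean 17346 ± 755, SD, n = 18) and 14212 to 16127 below 6 h (15275 ± 694, n = 10). The difference was 2071 ± 283 models (SE, permutation test, p = 2e-05, the smallest these resamples can reach, and adjusted p = 8e-05), and 16 of 18 later embryos exceeded every embryo of the earlier group. At full depth 22158 ± 2594 models were detected at 36-48 h and 18945 ± 1340 below 6 h (SD).

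The effective number of models was also higher in the later embryos. This measure grows both with evenness and with the number of models detected. The labels' protocol included a nuclease step (DSN) that lowers the share of abundant molecules. Its effect on this measure and on the shares held by abundant models was not tested. The effective number of models, the number of equally abundant models that would give the same Shannon entropy, was 4078 ± 1059 at 36-48 h (SD, n = 18) and 2819 ± 979 below 6 h (n = 10). The difference was 1260 ± 398 (SE, permutation test, p = 0.0063, adjusted p = 0.0083). The groups overlapped, and the lowest value of all, 601, belonged to embryo 56. The 100 most abundant models of each embryo held 25.1 ± 6.81% of gene counts at 36-48 h and 28.9 ± 6.11% below 6 h, a difference of -3.79 ± 2.51 percentage points that did not pass (permutation test, adjusted p = 0.18). Without embryo 56 it was -5.28 points (permutation test, adjusted p = 0.0035), so that library decided the call, and without embryo 1 it was -2.28 points (adjusted p = 0.44).

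**Figure D1:**
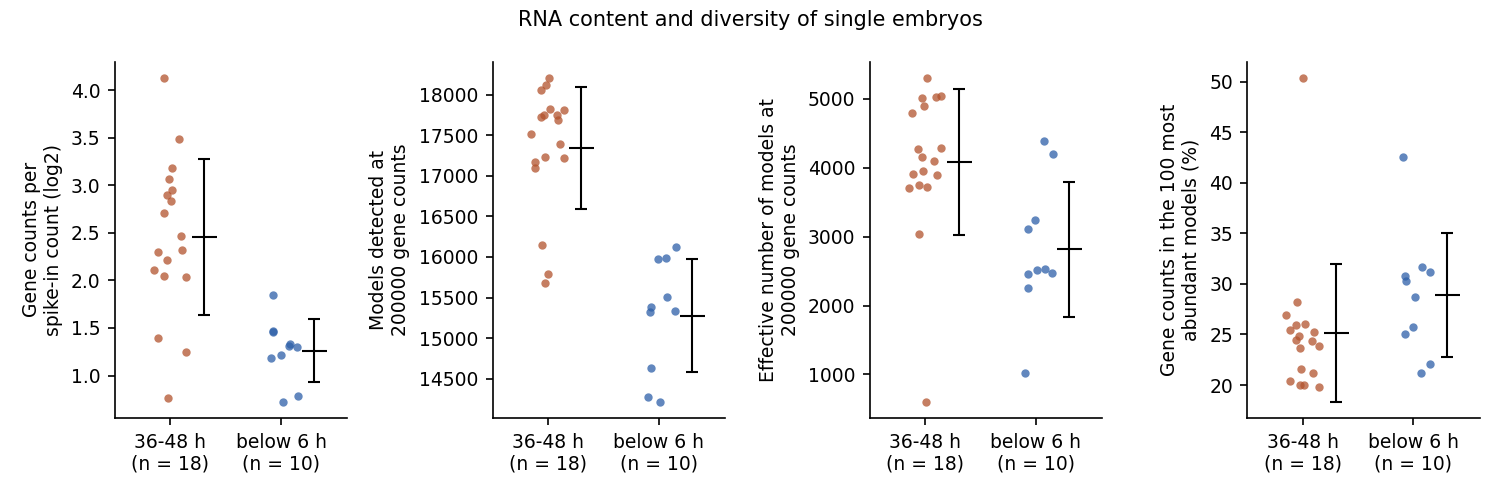
Each point is an embryo, with 36-48 h on the left and below 6 h on the right of each panel, and the bars beside the points are the mean ± SD; the panels show the log2 ratio of gene to spike-in counts, models detected and effective number of models at 200000 gene counts, and the percent of gene counts in the 100 most abundant models. In the panel of detected models 16 of 18 later embryos lie above the earlier ones, and a single later embryo (embryo 56) lies far from its group in the effective number and in the share of the top 100.

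The transcript levels of later embryos differed broadly from those of the earliest ones. Of 13341 models that passed the filter on low counts, 4857 rose (36.4%) and 3327 fell (24.9%) at 36-48 h relative to embryos below 6 h, at an adjusted p under 0.05 and a change of at least 2-fold (edgeR quasi-likelihood test with TMM scaling, Benjamini-Hochberg adjustment over all tested models). Together these are 61.3% of tested models. A further 1566 models passed the adjusted p with a smaller change, and 3591 did not pass it. The median log2 fold change was 2.47 among the models that rose, -1.75 among those that fell and 0.27 over all tested models. The filter asked for a minimum level in at least 10 of the 28 embryos, counted over both groups. A model absent below 6 h could meet it with 10 of the 18 later embryos. A model absent at 36-48 h had to meet it in all 10 earlier embryos, so the 2 directions did not enter on equal terms.

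Among tested models, large changes were mostly rises. A rise of at least 32-fold (5 on the log2 scale) was found for 984 models, and a fall of that size for 49. At a log2 change of 7 these counts were 486 and 7. Of the models that rose, 236 had 0 counts in the 10 earlier embryos. With these set to the lower bound that 3 counts pooled over the earlier group allow, the counts of large rises were 984 and 364, and the median stayed at 2.47. Strongly risen models also entered more easily, since the filter asked for all 10 earlier embryos where a model was absent later. Whether the 2 directions differ in size beyond their detection limits and this filter was not tested.

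Group ranges were fully apart for fewer models. The lowest of the 18 later embryos exceeded the highest of the 10 earlier ones in 1401 models, all of which had also passed as risen (28.8% of those that rose). The highest later embryo lay below the lowest earlier one in 1170 models, of which 1165 had passed as fallen (35.0% of those that fell). Of all tested models these are 10.5% and 8.77%.

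**Figure D2:**
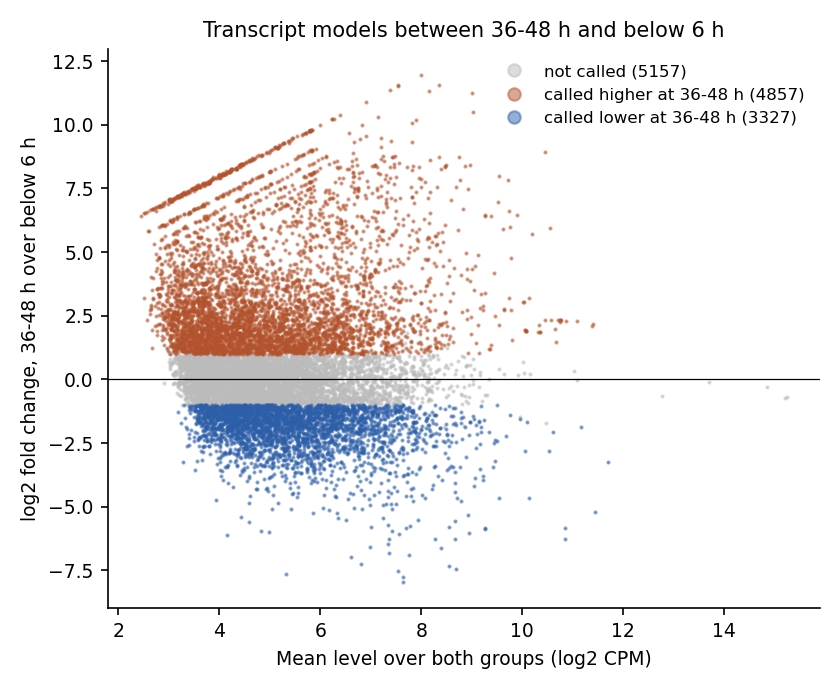
Each point is 1 of 13341 tested models, with its mean level over both groups (log2 CPM) on the x axis and its log2 fold change, 36-48 h over below 6 h, on the y axis; colours mark the 4857 models called higher, the 3327 called lower and the rest. Rises reach farther from 0 on the log2 scale than falls do, and the diagonal lines at the upper left are models with 0 or a few counts below 6 h, whose fitted fold depends on the level in the later group.

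The size of each side depended on the scaling. With each library scaled to its spike-in counts, 7689 models rose and 1091 fell, so that 87.6% of the changed models were higher, against 59.3% with TMM. With quantile normalization 3909 rose and 4469 fell (46.7% higher). The median log2 fold change over all tested models was 1.42 with spike-in scaling, 0.27 with TMM and -0.14 with quantile normalization. Spike-in scaling moved the changes upward as a whole, so risen models could hardly drop out. All 4857 models that rose with TMM also rose with spike-in scaling. Of the 3327 that fell with TMM, 1091 fell with spike-in scaling as well, 2236 were not called there, and none rose. So 1091 models passed as lower in the later embryos both as a share of the pool and per spike-in count. Calls aside, 2993 of the 3327 had a negative change with spike-in scaling and 334 a positive one (median -0.65 on the log2 scale).

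Risen models usually had a low but measurable level in the earliest embryos. Their mean level below 6 h was 0 for 236 models (4.86%), above 0 and up to 1 CPM for 541 (11.1%), above 1 and up to 10 CPM for 2178 (44.8%), above 10 and up to 100 CPM for 1762 (36.3%) and above 100 CPM for 140 (2.88%). At 36-48 h 1222 of them (25.2%) had a mean above 100 CPM. Among tested models, those that fell seldom disappeared. Their mean level at 36-48 h was above 10 and up to 100 CPM for 2121 models (63.8%), above 1 and up to 10 CPM for 1074 (32.3%), and up to 1 CPM for 5, with none at 0. The filter on low counts kept models mostly through the group where they were higher, so the level in that group is partly set by the filter. A model at 0 at 36-48 h was tested only if all 10 earlier embryos met the filter. Lost models were thus harder to test, and the absence of fallen models at 0 is partly set by the filter as well.

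A small set of models was off in every early embryo and on in every late one. Of the 40499 models, 152 had 0 counts in the 10 embryos below 6 h and at least 1 count in each of the 18 embryos at 36-48 h. Pooled over the later embryos they were at 4.88 to 474 CPM (median 31.1), whereas 3 counts in the pooled earlier group correspond to 0.315 CPM. They were thus at least 15.5-fold to at least 1503-fold higher. Together they held 0.482 to 1.29% of gene counts per later embryo (median 0.736%). Of the 152, 129 passed the filter and were tested, and 32 belonged to the 2 stems with the most models. The reverse pattern was found once. It required 0 counts in 18 embryos (17006180 pooled gene counts), against 10 embryos (9518968) for the first pattern. It also required a count in fewer embryos, so the 2 patterns are not on equal terms. Nv.T1.14126.1, singled out after its values were seen, had a count in each embryo below 6 h, at 1.13 to 16.7 CPM, and 0 counts in the 18 later embryos, where 3 pooled counts allow 0.176 CPM. It was pooled at 6.83 CPM in the earlier group and was too low to be tested.

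The files give transcript models by identifier only, and 0 of 40499 were found among the 38762 genes listed for assembly jaNemVect1.1, so no model can be given a gene name, a sequence or a role. Markers of a stage or cell type could not be looked up for the same reason, and the age of each embryo rests on its label. The models named here are those with the largest rise and fall among models whose group ranges did not overlap and that reached a mean of 10 CPM or more in the higher group. A level in CPM is a share of that embryo's gene counts and is not corrected for transcript length.

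Nv.T1.4212.1 was at 3.26 to 1790 CPM in the 18 embryos at 36-48 h (median 490) and at 0 in the 10 embryos below 6 h. The lowest later value rested on 3 counts in embryo 60 and the highest was in embryo 72. Pooled over the later embryos it was at 473 CPM, at least 1502-fold above the 0.315 CPM to which 3 counts in the pooled earlier group correspond (edgeR adjusted p = 6.0e-11). The fitted log2 change was 11.97, and 7.31 with quantile normalization to 12.75 with spike-in scaling, so its size depended on the scaling. In embryos 1 to 73 outside the comparison its median was 0 CPM at 6-12 h, 3.68 at 12-18 h, 122 at 18-24 h, 185 at 24-30 h and 374 at 30-36 h, so the level was higher in each successive window.

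Nv.T1.50890.1 was at 23.6 to 3312 CPM at 36-48 h (median 290) and at 0 to 1.23 CPM below 6 h, where a single count in embryo 6 was its only one. Its pooled ratio was 8686, with an exact 95% interval of 1559 to 343100 that covers counting error alone (fitted log2 change 11.55 ± 1.13, SE; edgeR, adjusted p = 5.4e-11). Without embryo 6 the fitted change was 12.39, and over all alternatives it was 7.31 with quantile normalization to 12.98 with spike-in scaling. The later embryos themselves differed widely: embryo 66 was at 3312 and embryo 64 at 2744 CPM, whereas embryo 73 was at 33.7 and embryo 61 at 23.6. Its windows between the groups had medians of 0, 18.6, 250, 497 and 263 CPM in order of time.

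The 2 largest falls belong to the same identifier stem, Nv.T1.12653, and their counts are uncertain if near-identical models of that stem share them. Nv.T1.12653.1516 was at 0 to 15.1 CPM at 36-48 h (median 0) and at 234 to 514 CPM below 6 h (median 418). Its 20 later counts came from 7 embryos, 7 of them in embryo 57, and the fall was -7.98 ± 0.46 on the log2 scale (SE; edgeR, adjusted p = 8.0e-17). It was -8.59 without embryo 57, -8.93 with the later embryos from 42 h on alone and -7.05 with those before 42 h alone. Nv.T1.12653.237 was at 0 to 8.62 CPM at 36-48 h (median 1.16) and at 280 to 487 CPM below 6 h (median 408), a log2 change of -7.78 ± 0.43 (SE; edgeR, adjusted p = 3.5e-17), and -9.15 from 42 h on and -6.72 before 42 h. In both models the earlier values were highest in embryo 50 and lowest in embryo 9, the youngest and the oldest of that group by label time. The later values of both were highest in embryo 57, the second youngest of the later group.

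**Figure D3:**
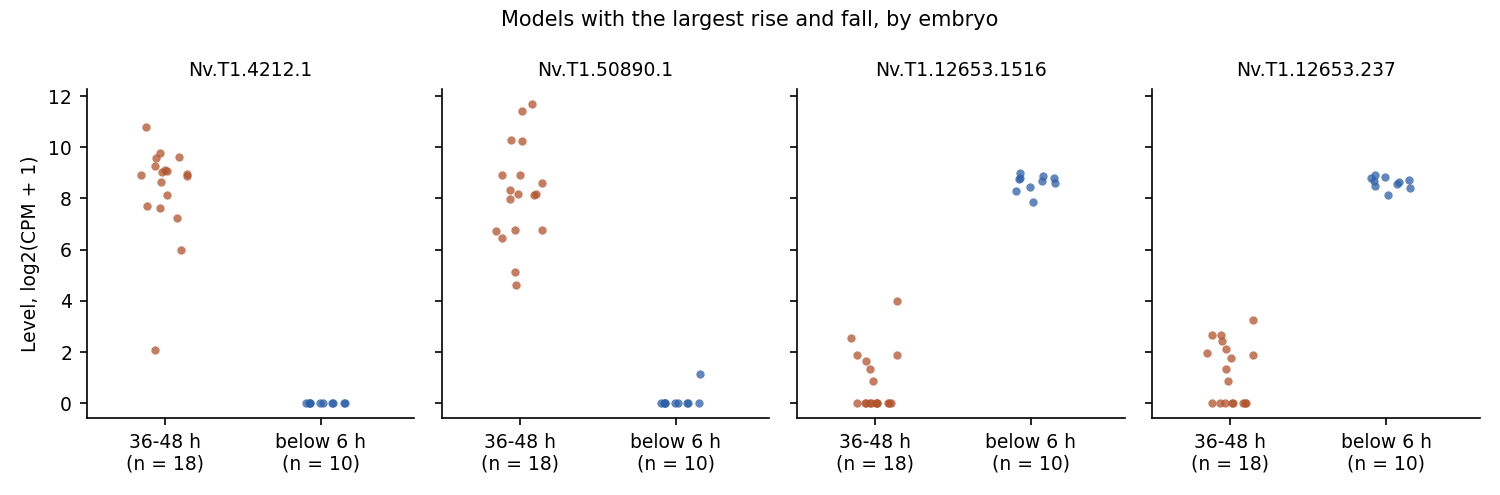
Points are embryos, with 36-48 h on the left and below 6 h on the right of each panel, and the y axis is log2(CPM + 1). The 2 risen models spread over several log2 units at 36-48 h and lie at or near 0 below 6 h, and the 2 fallen models lie between 234 and 514 CPM below 6 h and at 15.1 CPM or less at 36-48 h.

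By group mean, the same models were the most abundant in both groups. Nv.T1.63571.13927 and Nv.T1.63571.13926 had the highest and second highest mean level in both groups. Nv.T1.63571.13927 was at 8264 to 126948 CPM at 36-48 h (median 21653) and at 25731 to 101765 CPM below 6 h (median 46530). The log2 fold change of -0.70 ± 0.38 did not pass (edgeR adjusted p = 0.099), nor did that of Nv.T1.63571.13926 (-0.73 ± 0.38, adjusted p = 0.084). The highest value of each of these models was in embryo 56 at 36-48 h and in embryo 1 below 6 h. Embryo by embryo, Nv.T1.63571.13927 was the most abundant model in 13 of 18 later and 8 of 10 earlier embryos. Another model of that stem led in embryos 61, 63, 65, 66 and 67, and models of other stems led in embryos 3 and 7.

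The 2 stems with the most models took different parts of the change. The stem Nv.T1.63571 held 19.9 ± 6.40% of gene counts at 36-48 h (SD, n = 18) and 18.3 ± 6.41% below 6 h (n = 10). Of its 894 tested models, 582 rose (65.1%) and 67 fell (7.49%). The stem Nv.T1.12653 held 9.74 ± 0.79% at 36-48 h and 10.3 ± 0.59% below 6 h, and of its 408 tested models 128 rose (31.4%) and 151 fell (37.0%). Its summed share was thus nearly equal in the groups while its models moved in both directions. Outside both stems 4147 of 12039 tested models rose (34.4%) and 3109 fell (25.8%). What a stem stands for was not given in the sources used here.

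Opposite changes within a stem were found in 25 stems, of 696 with 2 or more tested models and 392 with 2 or more models that changed. The pair with the highest levels was in Nv.T1.12653. Nv.T1.12653.100 was at 1406 to 9111 CPM at 36-48 h (median 3853) and at 524 to 1591 CPM below 6 h (median 1159), so that it rose by 2.16 ± 0.31 on the log2 scale (SE; adjusted p = 1.6e-07 with edgeR). Nv.T1.12653.785 was at 209 to 1485 CPM at 36-48 h (median 460) and at 888 to 6614 CPM below 6 h (median 1956), a log2 change of -2.08 ± 0.32 (SE; edgeR, adjusted p = 6.3e-07). The ranges of the groups overlapped in both.

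The embryos between the groups, which the comparison did not use, show when the exchange fell. The share of gene counts held by the 4857 risen models had medians of 9.16% below 6 h, 13.1% at 6-12 h, 35.7% at 12-18 h, 47.4% at 18-24 h, 50.9% at 24-30 h, 52.8% at 30-36 h and 52.7% at 36-48 h. The share held by the 3327 fallen models had medians of 41.1, 37.0, 20.4, 12.6, 11.2, 10.6 and 8.80% in the same windows. The values of the first and last window were used to choose the models and are given as a description. Within 12-18 h the embryos ranged from 17.0 to 42.1% for the risen models and from 17.4 to 33.3% for the fallen ones; the lowest risen and the highest fallen share were both in embryo 27, which had 56536 gene counts. Embryo 56 had 29.8% of its counts in risen models, against 46.1 to 57.7% in the other 17 later embryos. At the edges of the groups, embryo 56 at 36 h and embryo 55 at 35.3 h had 29.8 and 52.8% in risen models, and embryo 9 at 4.67 h and embryo 11 at 6 h had 8.11 and 11.4%.

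**Figure D4:**
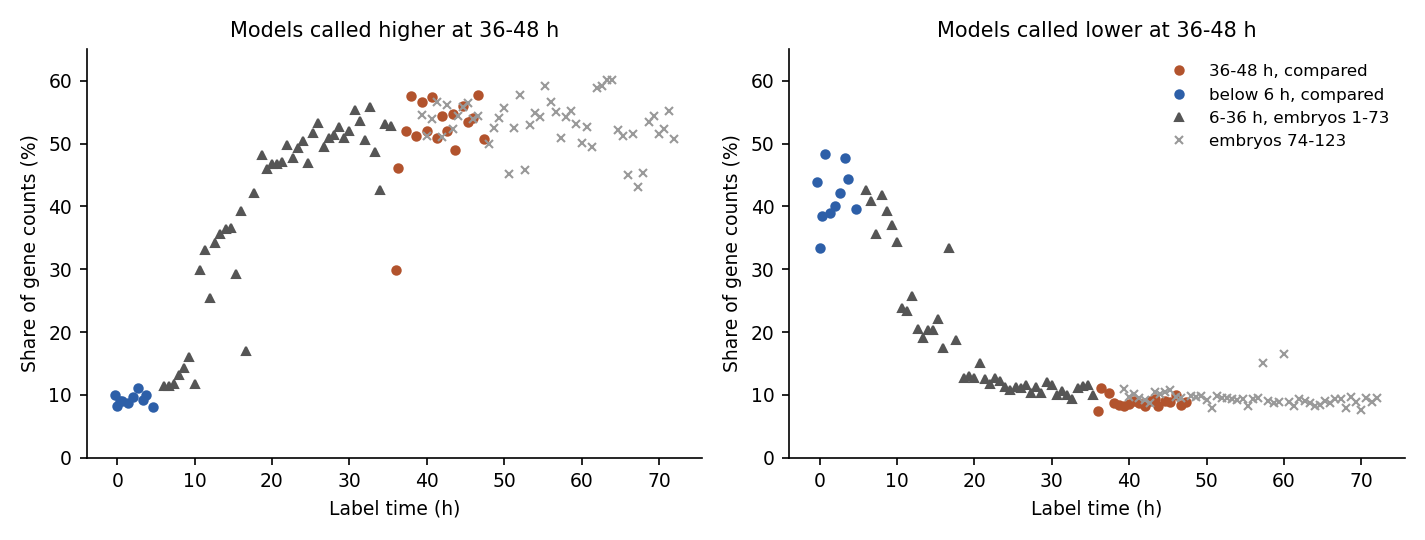
The share of gene counts (%) held by the risen models (left) and the fallen models (right) is plotted against label time in hours for the 121 embryos with at least 50000 gene counts; circles are the compared embryos, triangles the embryos of the same run in between and crosses embryos 74 to 123. The median shares change most between the 6-12 h and 18-24 h windows, and a single circle at 36 h, embryo 56, lies at 29.8% in the left panel.

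Model by model, most first passed the midpoint of their change before 24 h. Of the risen models 14.8% first passed the midpoint between their group means, on the log2(CPM + 1) scale, at 6-12 h, 40.8% at 12-18 h and 35.3% at 18-24 h, a cumulative 90.8%. Of the fallen models 22.3% passed it at 6-12 h, 50.5% at 12-18 h and 19.1% at 18-24 h, a cumulative 91.9%. The counts were 718, 1980 and 1714 risen models and 743, 1679 and 636 fallen models. A return across the midpoint in a later window was seen for 347 of the risen and 237 of the fallen models. With levels scaled to spike-in counts, the 18-24 h window held the most risen models (2472) and the 6-12 h window the most fallen ones (1621), so the order of the windows depended on the scaling. These windows hold 8 or 9 embryos each.

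**Figure D5:**
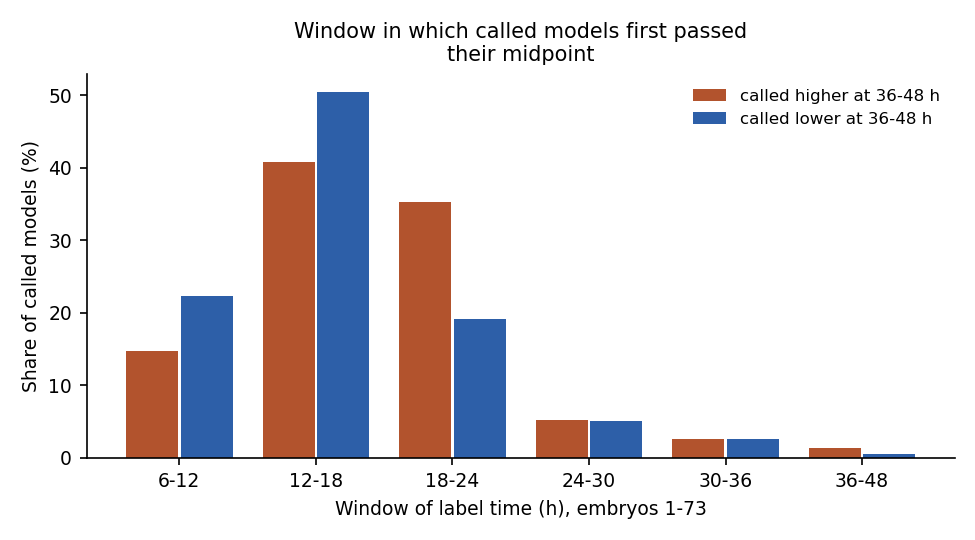
Bars give the percent of risen and of fallen models that first passed the midpoint between their mean levels below 6 h and at 36-48 h, by window of label time in embryos 1 to 73. The 12-18 h window holds 40.8% of the risen and 50.5% of the fallen models, and the windows from 24 h on hold small shares.

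The later group was less uniform than the earlier one. Among 695 models with at least 20 counts on average in both groups at equal depth, the median coefficient of variation between embryos was 0.421 at 36-48 h and 0.330 below 6 h, and it was higher at 36-48 h for 507 models (72.9%). The later group spans more hours. Among the 9 embryos from 42 h on the median was 0.381, and among the 9 before 42 h it was 0.435. Across tested models the correlation of log2(CPM + 1) between pairs of embryos had a median of 0.611 within 36-48 h (153 pairs), 0.758 within the embryos below 6 h (45 pairs) and 0.150 between the groups (180 pairs). No embryo correlated with any embryo of the other group above 0.258. These pairs share embryos and equal thinned depth, and they are given as a description. A model absent below 6 h could pass the filter while low or missing in some later embryos. A model absent at 36-48 h could not pass while missing in any earlier embryo. Whether this lowered the correlation within 36-48 h was not tested.

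Within the later group no model passed between the 9 embryos from 42 h on and the 9 before 42 h. Of 11231 models tested with edgeR, 0 rose and 0 fell (0%), and 1105 had an unadjusted p under 0.05, with a smallest adjusted p of 0.14. DESeq2 called 24 higher and 14 lower. With spike-in scaling 3160 models were higher and 4 lower, and the median log2 fold change over all models was then 0.98, against -0.03 with TMM. The ratio of gene to spike-in counts had a geometric mean of 7.61 from 42 h on and 3.94 before 42 h. The models that had risen since the earliest hours had a median step of 0.003 on the log2 scale (4809 of 4857 tested, 50.3% positive). Those that had fallen had a median step of -0.06 (1932 of 3327 tested, 44.0% positive), and all tested models -0.03 (47.5% positive). The filter of this fit needs a minimum level within 36-48 h, so fallen models that were low at those hours were left out.

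Embryos 74 to 123 offer separate embryos of about the same label times, and 12 of them at 39-48 h had enough counts. The risen models held 51.1 to 56.6% of gene counts in these embryos (median 54.3%), and the fallen models 8.77 to 10.9% (median 9.94%). Against the same 10 embryos below 6 h, 3548 of 11641 tested models were higher (30.5%) and 3306 lower (28.4%) with edgeR. That comparison shares the earlier embryos and also contains the difference between the 2 runs. The split depended on the scaling there as well: median-ratio size factors gave 2733 higher and 4410 lower, and spike-in scaling 8389 and 299. Nv.T1.4212.1 was at 171 to 943 CPM in these 12 embryos (median 483) and Nv.T1.50890.1 at 104 to 1195 CPM (median 645). Nv.T1.12653.1516 had 0 counts in each of them, and Nv.T1.12653.237 was at 0 to 11.7 CPM (median 0).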

How the data were processed

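The authors deposited raw, whole-number counts: each embryo's table lists 40499 transcript models, 92 ERCC spike-ins and 5 classes of unassigned counts. The submitters' processing notes name CASAVA 1.8, Bowtie2 2.1.0 and HTSeq 0.5.4p3. The genome build and annotation are not given in the sources used here. Per the labels' protocols, the protocol included a DSN (duplex-specific nuclease) step, which lowers the share of abundant molecules. Label times carry no unit and were read as minutes, since collection was every 20 min. Library sizes and tests used gene counts alone. Of all counts, 8.62 to 32.1% at 36-48 h and 4.27 to 43.1% below 6 h fell outside any feature, and 33.0 to 48.7% and 36.9 to 71.0% were not aligned.

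The 28 embryos entered a single fit over all transcript models in edgeR 4.0.16 (quasi-likelihood, TMM, filterByExpr, no covariate; R 4.3.3). A standard error was taken as the size of the log2 change over the root of its F value. Values per embryo were compared with two-sided permutation tests (100000 resamples, scipy 1.17.1), adjusted over 4 measures. Alternatives used DESeq2 1.42.0, limma 3.58.1 (voom), other filters, scalings and sets of embryos. Midpoints used TMM-scaled CPM over embryos 1 to 73 with at least 50000 gene counts. The counting interval of a pooled ratio is an exact binomial one at 95%, and it and the limits of 3 counts cover counting error only; no counts of distinct molecules were used. The p-values refer to the spread among these embryos alone, whose ages differ within a group and whose clutches are not given. Models were named by rule: 2 per direction by size of change, the 2 most abundant per group, and the stem pair with the highest levels. The members, lists and rules were chosen with earlier results of these data known. The fits were tested on simulated data.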

Additional observations from a re-analysis of the deposited data

Results flagged for a closer look

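Among the 10 embryos below 6 h, and in the windows of 8 or 9 embryos, 25 sets of values were searched for an embryo far from the others, and 6 were found. Chance finds about 1 in 20 among normally distributed values, a rate that does not carry over to counts near 0. In embryo 1 the 100 most abundant models held 42.5% of gene counts at equal depth, and the next highest of the 10 was 31.7%. In embryo 7, 43.1% of all counts were assigned to no feature, and the next highest was 10.6%. In embryo 3, 71.0% of all counts were unaligned, and the next highest was 48.9%. In embryo 32 at 18-24 h the fallen models held 15.1% of gene counts, and the next highest of the 8 was 13.0%. Nv.T1.12653.785 was at 6614 CPM in embryo 6, and the next highest was 3631 CPM. Nv.T1.50890.1 was at 1.23 CPM in embryo 6, a single count, and at 0 in the other 9, so that its gap is fixed by that count.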

How the results depend on the processing

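Over all other settings than those named here, the counts of risen and fallen models stayed within 1.5 times 4857 and 3327. Spike-in scaling gave 7689 and 1091. Other counts moved with the number of models tested: no filter on low counts gave 10157 and 7250 of 35474 (28.6 and 20.4%), thinning to equal depth 1967 and 1327 of 5005 (39.3 and 26.5%), and a minimum mean of 5 CPM in either group 7296 risen models of 18806 (38.8%), against 36.4 and 24.9% of 13341. Leaving out 1 embryo at a time gave 4629 to 5224 risen and 3209 to 3512 fallen models. The 4 models named for their rise or fall kept their direction and call in every setting in which they were tested, while the size of their change moved as given beside each. Under the other settings run, the ratio to spike-ins, the detected models and the effective number kept direction and call; without 1 embryo the ranges were 1.09 to 1.29 (log2), 1953 to 2169 models and 1059 to 1464. That of the top 100 share was -5.28 to -2.28 points. From 42 h on, 24 models were higher and 14 lower with DESeq2, 3160 and 4 with spike-in scaling, 3 and 0 with quantile normalization and 3 and 1 without a filter. Against the second run, spike-in scaling, added after the data were seen, gave 8389 higher and 299 lower. Requiring 90% of later embryos gave 308 models switched on, and thinning or 90% gave 2 lost. With spike-in scaled levels the midpoint fell at 6-12 h for 274 risen and 1621 fallen models, at 18-24 h for 131 fallen, at 24-30 h for 39 fallen, at 30-36 h for 36 and 185, and at 36-48 h for 9 and 116. Without embryos 27, 28 and 32 it fell at 30-36 h for 132 fallen and at 36-48 h for 41 and 34. The cause of these differences was not tested. No paired analysis was possible because the labels give no replicate numbers. Embryo 10 was too shallow for the thinned measures. Depth limits low models: 3 counts in the shallowest later embryo are 13.1 CPM.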

Other observations

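The 152 models that were off in every embryo below 6 h and on in every embryo at 36-48 h were followed through the embryos in between. A first count in any of the 9 embryos at 6-12 h was found for 120 of them, in the 9 embryos at 12-18 h for 29 more, and in the 8 embryos at 18-24 h for the last 3. Presence in at least 50% of a window's embryos was first reached at 6-12 h by 28 models, at 12-18 h by 63, at 18-24 h by 60 and at 24-30 h by 1. These windows differ in depth, and a first count depends on it.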
